A study of Bos taurus with 6 samples.

Results

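The poly(A)-binding protein family was followed in single bovine (Bos taurus) oocytes at metaphase of the second meiotic division (MII) and at the germinal vesicle stage (GV). Its genes were taken as every row of the deposited expression table with the symbol PABPC1, PABPC1L, PABPC4, PABPN1, PABPN1L, PAIP1 or PAIP2. These 7 symbols covered 10 of the 20707 rows, because PABPC4, PABPN1L and PAIP1 each stood on 2 rows. Each row was measured in 3 MII and 3 GV libraries, in RPKM, reads scaled by gene model length and library size. All oocytes came from cumulus-oocyte complexes aspirated from abattoir ovaries. MII oocytes had then been matured in vitro for 24 hours, whereas GV oocytes, still in prophase arrest, were taken at aspiration. No allele, strain or drug differed between the stages in the labels. The comparison asks how the measured mRNA pool differs between the 2 stages, and the study's title ties it to cytoplasmic polyadenylation.

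Poly(A)-binding proteins coat the poly(A) tail of mRNAs. The cytoplasmic forms (PABPC) hold on to the scaffold eIF4G at the cap and so couple the tail to translation and to mRNA stability, while the nuclear form PABPN1 stimulates poly(A) polymerase and sets tail length. PAIP1 and PAIP2 bind the cytoplasmic forms with opposite effects, PAIP1 favouring translation and PAIP2 repressing it by displacing PABPC from the tail. Oocytes store silent mRNAs with short tails and lengthen selected tails during meiotic maturation, and mammalian and frog oocytes carry PABPC1L (embryonic PABP, ePAB) as their specialised cytoplasmic form.

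The libraries are named here by their columns, MII14c, MII15 and MII15c for MII and GV14, GV14c and GV15 for GV. MII15c and GV14c match no sample title and were placed by stage alone, and the meaning of the numbers and of the letter c is not stated. The titles MII14 and GV15c in turn have no column, and whether these columns belong to them is not known. The labels do not tie libraries to animals, and n counts libraries, so the p-values cover no more than the spread among these 6. Depth, recovered from the steps of low RPKM values, was 21.29 to 32.58 M reads in MII and 20.23 to 29.95 M reads in GV libraries. Summed RPKM of the 11 oocyte markers in the table was 2.54e+03 to 3.43e+03 in MII and 5.25e+03 to 8.41e+03 in GV libraries. Its members moved both ways. KPNA7 was 130 to 210 RPKM in MII and 76.4 to 126 RPKM in GV libraries. ZP4 was 231 to 373 RPKM in MII and 1.25e+03 to 2.3e+03 RPKM in GV libraries. Summed RPKM of 19 cumulus or granulosa markers was 124 to 131 in MII and 128 to 194 in GV libraries, with LHCGR, PTX3 and NR5A1 at 0 in all 6 libraries and 6 of the 19 averaging 1 RPKM or more. Within that sum HAS2 was 55.4 to 64.8 RPKM in MII and 11.6 to 18.9 RPKM in GV libraries, and VCAN was likewise above its GV range in MII, while STAR was 29.3 to 39.7 RPKM in MII and 67.1 to 136 RPKM in GV libraries. Their part in the results was not tested. Since priming of the cDNA used the poly(A) tail, transcript number and tail capture cannot be told apart in any level. Adapter dilution was 1 in 50 for the MII columns with a title and 1 in 30 and 1 in 10 for the GV columns with one. Among these columns its part cannot be told apart from that of stage. The titles without a column give 1 in 30 for MII14 and 1 in 10 for GV15c.

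PAIP2, the repressor of PABPC, and PABPC1L, the oocyte form, fell in MII oocytes, while PABPC1, PABPN1 and the main PAIP1 gene showed no difference past the test. Of the 10 family rows, 8 averaged 1 RPKM or more and entered the test, limma on log2(RPKM + 1) over 8671 genes. PABPC1L entered only through its GV libraries, with a mean of 0.2083 RPKM in MII and 3.899 RPKM in GV. At a Benjamini-Hochberg adjusted p under 0.05, 3 of the 8 were lower in MII, 0 were higher and 5 were not called. The third of these carries the symbol PABPC4 but has no coding sequence in the annotation, as described further on. Over all tested genes 26.9% were called lower and 13.4% higher in MII, so 3 of 8 is no sign that the family stands apart. The median log2 change over all tested genes was -0.16. The 0 higher calls in limma depend on the setting, since PABPC4 was called higher under 3 alternatives and PABPN1 under 1. Before adjustment limma likewise put 0 family rows past 0.05 as higher, with PABPC4 just short of it.

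**Figure D1:**
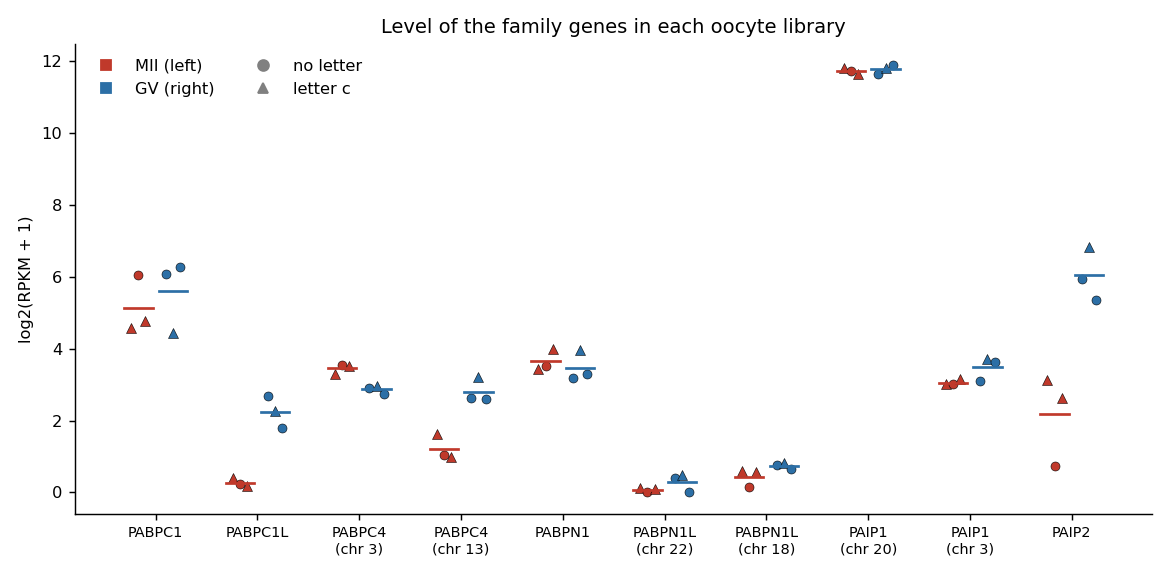
Level of each family row in each library, as log2(RPKM + 1) on the vertical axis, with MII libraries (red) left of GV libraries (blue). Triangles are libraries with the letter c in their name, circles those without, and lines are stage means. PAIP1 on chromosome 20 stands far above all others, and the means of PAIP2, PABPC1L and the PABPC4 row on chromosome 13 lie farthest apart between the stages.

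Among the cytoplasmic proteins, PABPC1 is the general PABP of most tissues. Its gene (ENSBTAG00000046358) spans chromosome 14, bases 65816006 to 65833853 on the plus strand, with 14 coding exons. Coordinates are those of the authors' annotation, whose build is not given in the sources used here. PABPC1 had 22.71, 65.32 and 26.46 RPKM in MII14c, MII15 and MII15c, against 66.34, 20.82 and 77.23 RPKM in GV14, GV14c and GV15. Both stages thus held high and low libraries, and the ranges overlapped almost wholly. The means were 38.16 ± 23.6 RPKM in MII and 54.8 ± 29.9 RPKM in GV (SD, n = 3 each), a log2 change of -0.47 ± 0.53 (SE, 95% interval -1.66 to 0.72) with a limma adjusted p of 0.51. The interval allows both a fall of more than 2-fold and a rise, so equal levels are not shown.

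PABPC1 levels split by the letter in the column names and not by stage. Of the columns with the letter, MII15c and GV14c match no title, so their letter rests on the column names alone. The 3 libraries with the letter c averaged 23.33 RPKM and the 3 without it 69.63 RPKM, with no overlap. In a limma model with stage and letter, looked at after the values were seen, the letter carried a log2 difference of -1.56 ± 0.22 (SE, adjusted p = 0.00393), while 1.56% of tested genes were called lower with the letter. Beside that term the stage change of PABPC1 was 0.05 (limma adjusted p = 0.874). Within the libraries with the letter the means were 24.58 RPKM in MII (2 libraries) and 20.82 RPKM in GV (1 library). Without the letter they were 65.32 RPKM in MII (1 library) and 71.79 RPKM in GV (2 libraries). Leaving out GV14c moved the stage change to -1.05 and leaving out MII15 to -0.93, neither past the test (limma adjusted p 0.0897 and 0.174), and it ranged from -0.29 to -0.13 without any other single library. Only with library weights was PABPC1 called lower (-1.11, limma adjusted p = 0.00555). In human the gene has processed copies, and how reads shared between copies were assigned is not given in the sources used here.

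PABPC1L, the form that stands for PABPC1 in oocytes and early embryos of mouse and frog, was near the detection limit in MII. Its gene (ENSBTAG00000016849) spans chromosome 13, bases 74042036 to 74066950 on the plus strand, with 14 coding exons. PABPC1L had 0.318, 0.177 and 0.13 RPKM in MII14c, MII15 and MII15c, against 5.439, 3.786 and 2.473 RPKM in GV14, GV14c and GV15. Every MII library lay below every GV library, which was so for 32.1% of tested genes. At the recovered depths and over the 1857 coding bases alone these values stand for at least 18, 6 and 7 reads in MII, against 302, 189 and 92 reads in GV. The means were 0.2083 ± 0.0978 RPKM in MII and 3.899 ± 1.49 RPKM in GV (SD, n = 3 each), so the MII mean was 0.0534 of the GV mean. The log2 change was -1.98 ± 0.33 (SE, 95% interval -2.72 to -1.24, limma adjusted p = 0.00176). That change understates the ratio because 1 was added to each value, and with 0.1 added it was -3.67. PABPC1L passed the filter on low values only through the GV libraries.

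PABPC4 is the inducible PABP, first described in activated T cells of human. Its coding row (ENSBTAG00000017125) spans chromosome 3, bases 107083933 to 107097489 on the plus strand, with 15 coding exons. It had 8.851, 10.79 and 10.55 RPKM in MII14c, MII15 and MII15c, against 6.5, 6.773 and 5.716 RPKM in GV14, GV14c and GV15. Every MII library lay above every GV library, as for 19.8% of tested genes, yet the change did not pass the test. The means were 10.07 ± 1.06 RPKM in MII and 6.33 ± 0.549 RPKM in GV (SD, n = 3 each), and the log2 change was 0.59 ± 0.26 (SE, limma adjusted p = 0.105). It was called under median-ratio scaling (0.84, limma adjusted p = 0.0387), quantile normalization (0.92, limma adjusted p = 0.022) and library weights (0.63, limma adjusted p = 0.0121), and the adjusted p over its 18 alternatives ran between 0.0121 and 0.304.

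The other row named PABPC4 (ENSBTAG00000044688) behaved in the opposite way. The authors' annotation holds this identifier as a U2 small nuclear RNA, a spliceosome RNA, within predicted transcripts on chromosome 13, bases 73779673 to 73802784 on the minus strand, and gives it no coding sequence. It had 2.07, 1.069 and 0.989 RPKM in MII14c, MII15 and MII15c, against 5.128, 8.235 and 5.058 RPKM in GV14, GV14c and GV15. Every MII library lay below every GV library, as for 32.1% of tested genes, and the log2 change was -1.59 ± 0.34 (SE, limma adjusted p = 0.00572). Without the 2 columns that match no title the call was lost (-1.27, limma adjusted p = 0.0857). Of the 183 reads that the annotation lists for this gene model of 23112 bases, 25 or 13.7% were spliced. Which transcript they come from was not tested, so the level is not that of a known U2 RNA. The annotation names no PABPC4 transcript at this row, and it is left out of the sums that follow.

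Within each library, the makeup of the cytoplasmic PABP mRNAs was dominated by PABPC1. Of the summed RPKM of PABPC1, PABPC4 and PABPC1L, PABPC1 took 71.2%, 85.6% and 71.2% in MII14c, MII15 and MII15c, against 84.7%, 66.4% and 90.4% in GV14, GV14c and GV15. PABPC4 took 27.8%, 14.1% and 28.4% in the same MII libraries, against 8.3%, 21.6% and 6.69% in the GV libraries. PABPC1L took 0.998%, 0.232% and 0.35% in MII, against 6.95%, 12.1% and 2.9% in GV. The PABPC1L share was lower in all 3 MII libraries than in any GV library, at 0.527 ± 0.412% in MII and 7.3 ± 4.6% in GV (SD, n = 3 each), with an exact two-sided permutation p of 0.1, the smallest that 3 against 3 allows. The PABPC1 and PABPC4 shares overlapped between the stages (exact permutation p 0.9 and 0.2). Without GV14c the PABPC1L share differed by -4.4 percentage points, against -6.78 with all libraries.

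**Figure D2:**
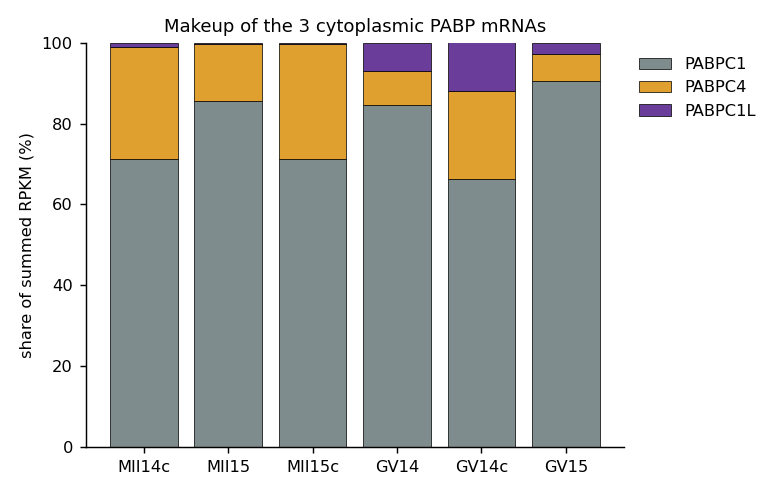
Share of the summed RPKM of PABPC1, PABPC4 and PABPC1L held by each gene, in percent, with the 3 MII libraries left of the 3 GV libraries. PABPC1L (purple) is 2.9% to 12.1% of the sum in GV libraries and under 1% in MII libraries, while PABPC1 (grey) is the largest part in all 6.

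As a ratio within a library, log2((PABPC1L + 1)/(PABPC1 + 1)) was -4.17, -5.82 and -4.60 in MII14c, MII15 and MII15c, against -3.39, -2.19 and -4.49 in GV14, GV14c and GV15. The means differed by -1.51 with overlap between the stages, an exact permutation p of 0.2 and 0.2 adjusted over the 3 ratios examined. The difference was -0.92 without GV14c and -2.08 without GV15, the extremes over single libraries left out. GV15, the GV library with the most PABPC1 and the least PABPC1L, is the one that reached the MII values.

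The nuclear member PABPN1 (ENSBTAG00000006884) spans chromosome 10, bases 21427099 to 21434016 on the minus strand, with 7 coding exons. PABPN1 had 9.863, 10.55 and 14.99 RPKM in MII14c, MII15 and MII15c, against 8.074, 14.56 and 8.743 RPKM in GV14, GV14c and GV15. The stages overlapped, and the highest MII and GV libraries were nearly equal. The log2 change was 0.18 ± 0.31 (SE, 95% interval -0.52 to 0.89, limma adjusted p = 0.673). It was called only with library weights (0.63, limma adjusted p = 0.0267).

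PABPN1 shares 2829 bases on the same strand with a neighbouring row named BCL2L2-PABPN1 (ENSBTAG00000019692), a symbol that stands in human for a readthrough transcript. That row had 2, 2.66 and 2.12 RPKM in MII14c, MII15 and MII15c, against 0.763, 0.22 and 0.92 RPKM in GV14, GV14c and GV15. It was thus low beside PABPN1 in each library. Its 3 MII libraries lay above its GV libraries, as for 19.8% of tested genes. How reads of the shared bases were divided between the rows is not given in the sources used here.

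PABPN1L, the cytoplasmic relative of PABPN1 that is known in mouse oocytes (ePABP2), was scarce at both stages. The coding row (ENSBTAG00000023752, chromosome 18, bases 14086352 to 14089008, minus strand, 7 coding exons) had 0.515, 0.108 and 0.493 RPKM in MII14c, MII15 and MII15c, against 0.689, 0.766 and 0.567 RPKM in GV14, GV14c and GV15. These values equal 14, 2 and 14 reads in MII, against 18, 18 and 10 reads in GV. Every MII library lay below every GV library in RPKM, as for 32.1% of tested genes. The gap lies between MII14c with 14 reads and GV15 with 10, and reads this few do not secure it. With a mean of 0.523 RPKM the row was not tested with the others. In a limma fit with no filter its log2 change was -0.30 ± 0.17 (SE, adjusted p = 0.281), which is not past the test and is on a scale where the added 1 exceeds the levels. The ratio log2((PABPN1L + 1)/(PABPN1 + 1)) averaged -3.21 ± 0.32 in MII and -2.73 ± 0.37 in GV (SD, n = 3 each, exact permutation p = 0.2). The second row with the symbol (ENSBTAG00000006727, chromosome 22, bases 25460261 to 25461074, plus strand) has no coding sequence in the annotation and held 2, 0 and 2 reads in MII, against 8, 9 and 0 reads in GV. A count of 0 allows up to 3 reads there, or 0.173 RPKM in MII15 and 0.182 RPKM in GV15, for counting error only.

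PAIP1, the activating partner of PABPC, was the most abundant member by far. Its main row (ENSBTAG00000020376) spans chromosome 20, bases 31283132 to 31312188 on the plus strand, with 11 coding exons. PAIP1 had 3626.0, 3384.6 and 3218.6 RPKM in MII14c, MII15 and MII15c, against 3212.7, 3596.8 and 3801.3 RPKM in GV14, GV14c and GV15. Ranked by RPKM among the 20707 rows it stood at places 6, 9 and 9 in MII, and at places 10, 8 and 9 in GV. The log2 change was -0.05 ± 0.20 (SE, 95% interval -0.50 to 0.40, limma adjusted p = 0.858). PAIP1 was 51.8 to 160 times PABPC1 per length in MII libraries and 48.4 to 173 times in GV libraries. In each stage the lowest of these ratios came from libraries without the letter c.

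Of the 39826 reads that the authors' annotation lists for the PAIP1 locus, 65 or 0.163% were spliced. At the recovered depths the coding bases alone stand for at least 86675 reads in MII15 and 135744 reads in MII14c. The listed reads are thus not the full set behind the RPKM, and how they were chosen was not examined. The median over 6917 gene records with at least 1000 such reads was 3.01%, and 8.52% of those records lay below PAIP1. PABPN1 was likewise low at 0.108%, whereas PABPC1 had 3.38%, PABPC4 2.18% and PAIP2 1.39%. Where in the PAIP1 locus the reads lie was not analysed here, so the level is that of the gene model and not of a known PAIP1 isoform.

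The second PAIP1 row (ENSBTAG00000046231) is an unnamed gene on chromosome 3, bases 8770080 to 8772051 on the plus strand, with 4 coding exons and 2485 listed reads, 0 of them spliced. It had 7.087, 7.061 and 7.867 RPKM in MII14c, MII15 and MII15c, against 7.573, 12.13 and 11.46 RPKM in GV14, GV14c and GV15. GV14 lay among the MII libraries and the other GV libraries lay above them. The log2 change was -0.43 ± 0.28 (SE, limma adjusted p = 0.262). Whether reads of the abundant PAIP1 gene reach this row was not tested.

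PAIP2, which competes with mRNA tails and with PAIP1 for PABPC, showed the largest change among the 8 tested rows on the log2(RPKM + 1) scale, whereas by ratio of means PABPC1L fell further. The gene (ENSBTAG00000008224) spans chromosome 7, bases 52252774 to 52270428 on the plus strand, with 3 coding exons. PAIP2 had 7.776, 0.679 and 5.194 RPKM in MII14c, MII15 and MII15c, against 60.03, 113.7 and 39.74 RPKM in GV14, GV14c and GV15. The lowest GV library was thus well above the highest MII library, and 32.1% of tested genes likewise had every MII library below every GV library. MII15 was far below its fellow MII libraries. Over the 375 coding bases alone the MII15 value stands for at least 5 reads, against 90 in MII14c and 63 in MII15c. By rank PAIP2 stood at places 4300, 7746 and 4808 in MII, and at places 1160, 679 and 1599 in GV. The means were 4.55 ± 3.59 RPKM in MII and 71.17 ± 38.2 RPKM in GV (SD, n = 3 each), so the MII mean was 0.0639 of the GV mean. The log2 change was -3.87 ± 0.60 (SE, 95% interval -5.23 to -2.51, limma adjusted p = 0.0013).

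PAIP2 was also called higher with the letter c, by 1.67 ± 0.30 on the log2 scale (SE, adjusted p = 0.0118 in the same limma model with stage), where 5.73% of tested genes were called higher. The letter of MII15c and GV14c again rests on the column names alone. The stage change stood on both sides of the split by letter. With the letter the means were 6.485 RPKM in MII (2 libraries) and 113.7 RPKM in GV (1 library), a log2 difference of -3.96. Without it they were 0.679 RPKM in MII (1 library) and 49.88 RPKM in GV (2 libraries), a difference of -4.89. In all 18 alternatives the call was kept, with changes between -4.43 and -2.96 and limma adjusted p between 5.04e-07 and 0.0176. PABPC1 and PAIP2 were the only 2 of the 8 tested rows called for the letter, and in opposite directions.

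**Figure D3:**
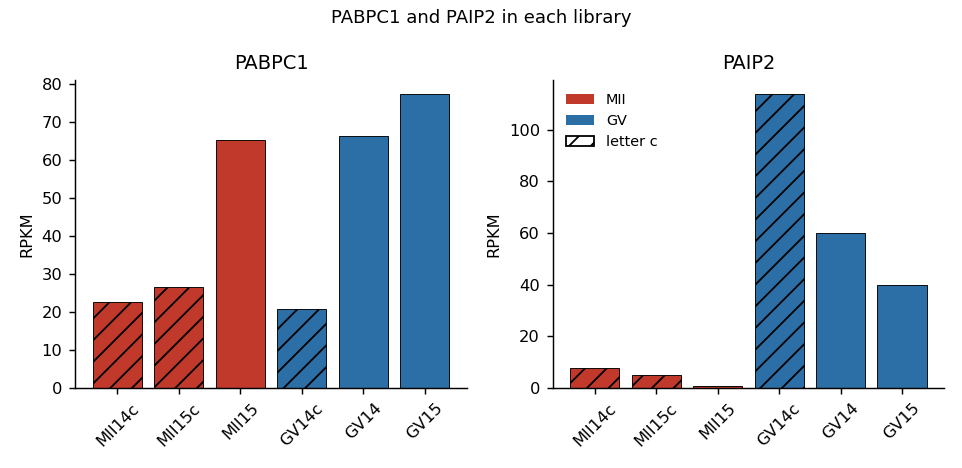
RPKM of PABPC1 (left panel) and PAIP2 (right panel) in each library, with MII bars (red) left of GV bars (blue) and libraries with the letter c hatched. PABPC1 is low in the 3 hatched libraries of either stage, whereas PAIP2 is low in the 3 MII libraries.

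PAIP2 overlaps 2569 bases of SLC23A1, an ascorbate transporter gene, on the opposite strand. SLC23A1 had 0.323 to 0.852 RPKM in MII and 0.407 to 1.65 RPKM in GV libraries, and whether reads were counted by strand is not given in the sources used here. Relative to PAIP1, log2((PAIP2 + 1)/(PAIP1 + 1)) was -8.69, -10.98 and -9.02 in MII14c, MII15 and MII15c, against -5.72, -4.97 and -6.54 in GV14, GV14c and GV15. The repressor was thus scarcer relative to PAIP1 in every MII library, by a mean of -3.82, with an exact permutation p of 0.1, the smallest possible, and 0.2 adjusted over the 3 ratios.

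**Figure D4:**
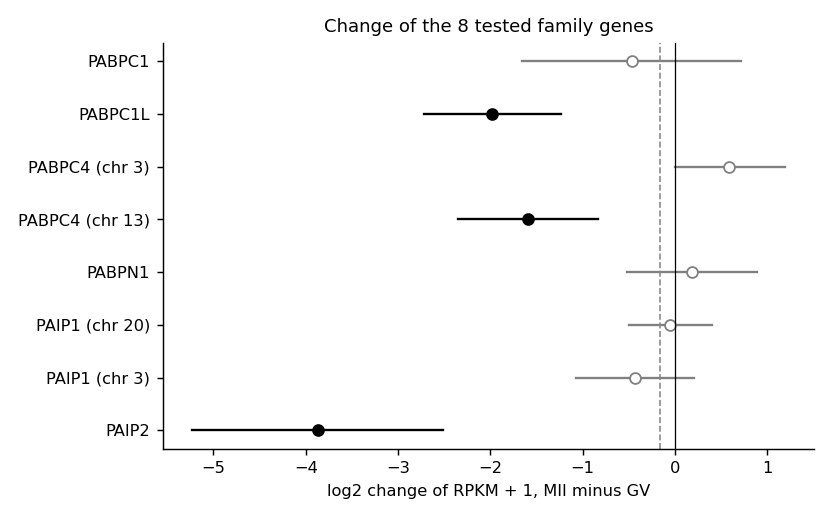
Log2 change of RPKM + 1, MII minus GV, for the 8 tested family rows, with 95% intervals from limma. Filled black points passed the test, open grey points did not, and the dashed line is the median of all tested genes, -0.16. PAIP2, PABPC1L and the PABPC4 row on chromosome 13 lie left of 0 with their whole interval.

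The order of levels shifted with these changes. In MII it was PAIP1, PABPC1, PABPN1, PABPC4, PAIP1 of chromosome 3, PAIP2, PABPC4 of chromosome 13, PABPN1L, PABPC1L and PABPN1L of chromosome 22. Among neighbours in that order the ranges of PABPN1 and PABPC4 overlapped. So did those of the chromosome 3 PAIP1 row, PAIP2 and the chromosome 13 PABPC4 row, and those of PABPN1L and PABPC1L. In GV the order was PAIP1, PAIP2, PABPC1, PABPN1, PAIP1 of chromosome 3, PABPC4, PABPC4 of chromosome 13, PABPC1L, PABPN1L and PABPN1L of chromosome 22. There PAIP2 overlapped PABPC1, PABPN1 overlapped the chromosome 3 PAIP1 row, and PABPC4, the chromosome 13 PABPC4 row and PABPC1L overlapped in turn. PAIP2 stood thus second of the 10 rows in GV and sixth in MII.

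The genes most like each tested row were those with the smallest root mean square difference of log2(RPKM + 1), each gene centred on its mean over the 6 libraries. For PAIP2 they were RPL18, a ribosomal protein gene (difference 0.32), and EIF3G, a subunit of initiation factor 3 (0.33). For PABPC1L they were DUSP22 (0.12), a phosphatase gene, and EIF2B2 (0.15), a subunit of the eIF2 exchange factor. For PABPC1 they were ZNF277 (0.20) and ATP6V1C2 (0.22), and for coding PABPC4 ATP2C1 (0.06) and NAA20 (0.07). For PABPN1 they were CCNT2 (0.07) and CERS2 (0.08), and for PAIP1 KDELR3 (0.04) and RAB18 (0.06). For the chromosome 3 PAIP1 row they were RAD51B (0.09) and MYCL1 (0.10), and for the chromosome 13 PABPC4 row GHITM (0.08) and C12orf73 (0.11). No 2 family rows named the same gene, and likeness over 6 libraries is a description only.

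The genes that work with the family moved in both directions, by 8 fixed lists read from the same limma fit, and values in parentheses without a unit are log2 changes. Among other family genes, PABPC5 (2.053 ± 0.746 RPKM in MII, 0.7633 ± 0.705 in GV) and PAIP2B, the paralog of PAIP2 (0.8277 ± 0.567 in MII, 2.109 ± 1.53 in GV, SD, n = 3 each), did not pass the test. PABPC1L2A was in the table but too low to test. Beside the lists stand the 13.4% of all tested genes called higher and the 26.9% called lower. Genes called higher were 1162 of 8671 in the main fit, 1687 with median-ratio scaling, 2133 with quantile normalization and 2262 with library weights. They were 1335 of 8808 without MII15 and 357 of 8456 without both columns that match no title. List counts under those settings are to be read beside these totals. The cap and scaffold list holds relatives of eIF4F proteins that are not all known to bind PABPC. Of its 14 tested genes 3 were higher, 4 lower and 7 not called, with a median log2 change of 0.11. With quantile normalization 6 were higher and 3 lower. The eIF4G relative EIF4G2 rose (316.7 ± 32 RPKM in MII, 167.8 ± 28.8 in GV), as did the helicase EIF4A2 (1.24). The cap binder EIF4E3 (1.03) was also called higher, but its call was lost without any 1 of the 6 libraries. Lower were the oocyte cap binder EIF4E1B (28.87 ± 5.13 RPKM in MII, 116.1 ± 35.6 in GV), EIF3G (-3.94), EIF4E2 (-1.04) and the helicase cofactor EIF4B (-1.55). The EIF4E2 call was lost without any single library but MII14c, and the EIF4B call without GV14, GV14c, GV15 or MII15c. EIF4G1, the classical scaffold, had 1.356 ± 0.727 RPKM in MII and 1.049 ± 0.464 in GV. EIF4G3 had 11.18 ± 1.54 RPKM in MII and 9.635 ± 0.925 in GV, and neither was called. Both tested termination factors, which meet PABPC at the stop codon, were lower, ETF1 (-1.71) and GSPT1 (-0.77). ETF1 had a mean of 0.9653 RPKM in MII and 5.541 RPKM in GV, and passed the filter only through GV. Without GV14, GV14c, GV15 or MII15c the lower cap and scaffold genes numbered 2. Without GV14, GV15 or MII15c 1 termination factor, ETF1, was called. With median-ratio scaling, quantile normalization or TPM scaling 1 termination factor was likewise called lower.

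Of 15 tested proteins that bind the PABPC C-terminal domain or associate with it, 2 were higher, 3 lower and 10 not called (median 0.30). The split became 5 higher and 3 lower with median-ratio scaling or quantile normalization, and 1 and 1 without both columns that match no title. PAN2 (1.41) and PAN3 (0.89), which make up a deadenylase that PABPC draws to the tail, rose. TOB1, an adaptor between PABPC and CCR4-NOT, fell to 11.73 ± 1.44 RPKM in MII, against 56.11 ± 17.9 in GV (SD, n = 3 each), and USP10 (-1.44) and ATXN2L (-1.39) were lower, ATXN2L not without GV14c or MII15c. The deadenylation list holds deadenylases together with other CCR4-NOT genes and adaptors. Of its 15 tested genes, PAN2 and PAN3 among them again, 6 were higher, 2 lower and 7 not called (median 0.48). The higher and lower shares were 40% and 13.3%, against 13.4% and 26.9% of all tested genes. The catalytic subunits CNOT6L (58.94 ± 17.5 RPKM in MII, 14.83 ± 1.82 in GV) and CNOT7 (1.31) rose, and CNOT10 (-1.11) was lower. The adaptor BTG2, at 0 to 0.032 RPKM in MII and 0.881 to 3.863 RPKM in GV, passed the filter only through GV, and its change of -1.71 was -4.27 with 0.1 added. CNOT8 (0.81) and BTG4 (0.87), named after their values were seen, complete the 6. The CNOT8 call was lost without GV14, GV15, MII14c or MII15c, and the BTG4 call without GV14, GV14c, MII15 or MII15c. CNOT10 lost its call without GV14, GV15, MII15 or MII15c. The PAN3 call was lost without any single library but MII15, leaving 1 higher gene in the first list without GV14, GV15, MII14c or MII15c. Genes of the deadenylation list called higher numbered 3 without GV14 or MII15c. Those called lower numbered 0 without GV14 and 1 without GV14c, GV15, MII15 or MII15c, BTG2 being under the filter without GV14 or GV14c.

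Of 17 tested genes of nuclear 3′ end formation, 4 were higher, 3 lower and 10 not called (median 0.11), and 7 were higher with quantile normalization. PAPOLG, a poly(A) polymerase, had 635.4 ± 34.9 RPKM in MII and 330.6 ± 8.96 in GV (SD, n = 3 each), and CSTF3 (0.93), CSTF2 (0.73) and CSTF1 (0.88) of the cleavage stimulation factor were also higher. The endonuclease CPSF3 (-1.88), NUDT21 (-1.30) and FIP1L1 (-1.48) fell. Of 13 tested cytoplasmic polyadenylation genes, 3 were higher, 1 lower and 9 not called (median 0.53), with CPEB4 at 39.38 ± 1.57 RPKM in MII and 10.63 ± 1.46 in GV, PUM2 (1.19), the polymerase PAPD4 (0.70) and MSI1 (-1.33). Of 13 tested partners of PABPN1 and nuclear poly(A) RNA, ZFC3H1 (1.41) and THOC2 (0.92) were higher, NCBP1 (-1.20) and ALYREF (-1.71) lower and 9 not called (median 0.05). Without both columns that match no title this last list had 1 higher and 0 lower genes. Without GV15 or MII15c 2 end-formation genes were called higher, and 1 without both columns that match no title. The CSTF2 call was lost without GV14, GV15, MII14c or MII15c, and the CSTF1 call without GV14c, GV15, MII15 or MII15c. Cytoplasmic polyadenylation genes called higher numbered 7 without MII15, 6 with median-ratio scaling, 7 with quantile normalization, 8 with library weights and 1 without both columns that match no title. The MSI1 call was lost without any single library but MII14c, and the PAPD4 call without GV14, GV15, MII14c or MII15c.

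**Figure D5:**
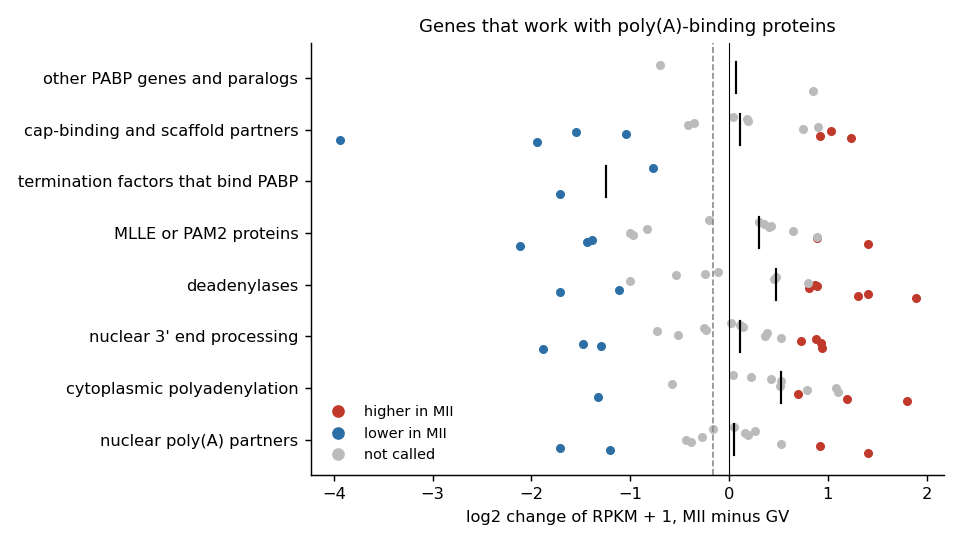
Log2 change of RPKM + 1, MII minus GV, for each tested gene of the 8 lists, with red points higher in MII, blue points lower in MII and grey points not called by limma. Black ticks are list medians and the dashed line is the median of all tested genes, -0.16. Each list with at least 13 tested genes holds points on both sides of 0.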

How the data were processed

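RPKM per gene and library were deposited by the authors, per the file headers. Per the labels, RNA of individual oocytes was amplified to cDNA with a low-input kit and read as single Illumina reads. The submitters' processing notes name DESeq, with no role. Aligner, counter and build are not given in these sources. Coordinates, spliced reads and names came from the deposited annotation, which the authors extended by transcript discovery, per the file headers.

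The 6 columns were fitted with limma 3.58.1 in R 4.3.3 (lmFit, eBayes with trend) on log2(RPKM + 1) for the 8671 genes averaging 1 RPKM or more over the libraries. P-values were adjusted by Benjamini-Hochberg over all of them at a threshold of 0.05. All log2 changes are MII minus GV and understate changes of low genes. No count model was used. The limma step was tested on simulated data. Single shares and ratios had exact permutation tests over libraries (scipy 1.17.1).

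Depth was found per library as the value that made low RPKM values whole reads, using 3662 gene models without untranslated parts; 86.7% to 94.6% of low values (under 15 reads) then lay within 0.1 of a whole read. Reads are lower bounds where a model is longer than its coding bases, and they cover counting error only.

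Members, lists and alternatives were chosen with earlier results of these data known. Named were all family rows, from each list up to 4 tested genes of smallest limma p and all members of a count of 5 or fewer, and the 2 genes most like each tested row. EIF4G1, EIF4G3 and PABPC1L2A were named after their values were seen. The row of highest mean stands for a symbol in the lists. Stage comes from the titles, since the source label gives in vitro maturation for every sample. Libraries of the same number are not known to be paired. Alternatives covered the added constant, filter, scaling, model and libraries.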

Additional observations from a re-analysis of the deposited data

How the results depend on the processing

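The fall of PAIP2 and of PABPC1L kept its direction and its call under every alternative in which the gene was tested. PABPC1L passed filters on low values only through its GV libraries. At a mean of at least 5 RPKM neither PABPC1L nor the chromosome 13 PABPC4 row was tested, which leaves 1 family row called lower. The PABPC4 row on chromosome 13 lost its call without both columns that match no title (-1.27). With library weights PABPC1 (-1.11), PABPC4 on chromosome 3 (0.63) and PABPN1 (0.63) became calls, so 2 family rows were higher. PABPC4 was also called with median-ratio scaling (0.84) and quantile normalization (0.92), 1 higher row in each, and the cause was not tested. No family result reversed its direction as a call.

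Over all tested genes 1162 were called higher and 2329 lower (66.7% of calls lower), against 1687 and 2059 (55%) with median-ratio scaling, 2133 and 1777 (45.4%) with quantile normalization and 1370 and 2047 (59.9%) with TPM scaling, which moved the median log2 change to 0.05, 0.22 and -0.07. Library weights gave 2262 higher. Leaving out 1 library gave 588 (without MII15c) to 1335 higher, with 763 without GV14 and 762 without GV15. Without both columns that match no title 357 were higher and 1286 lower. Adding 0.1 gave log2 ratio differences of -3.19 for PABPC1L/PABPC1 and -1.06 for PABPN1L/PABPN1.

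With the number 14 or 15 as a replicate block, 1141 genes were higher and 2134 lower, and 3 family rows lower and 0 higher. Deviations of same-named libraries correlated at 0.33 (MII14c with GV14c) and 0.43 (MII15 with GV15). Those of MII15c and GV14c, which share only the letter, correlated at 0.26, and those of MII15 and GV14, both without it, at 0.07. Pairs sharing only the number lay at -0.01 (MII14c with GV14) and -0.23 (MII15c with GV15). Pairs sharing neither lay between -0.41 and -0.10. Only 2 names are shared, so no pairing is established. Low reads limit PABPN1L, MII values of PABPC1L and the MII15 value of PAIP2.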
